A study of Chenopodium quinoa with 9 samples.

Results

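In field-grown quinoa (Chenopodium quinoa), 102 of the 54238 genes measured, or 0.188%, had a clear peak of messenger RNA in the stem. A gene was taken as peaking in stem when the lowest of its 3 stem values was at least 2 FPKM and at least 1.5 times the highest of its 6 root and leaf values. FPKM is the number of sequenced fragments scaled by gene length and library size, so it can be compared between genes. The stem, root and leaf values of all 9 libraries chose these genes, and their stem peak is therefore described below and not tested.

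Yellow bitter quinoa was grown in a field, with no treatment that the labels name. Root, stem and leaf each had 3 libraries, made from pools of 10 out of 30 individuals, which the labels call both strains and plants. The 3 organs of a replicate number came from the same pool, per the labels' protocols, and sowing was in March and harvest in August. A pool averages over plants, and an organ averages over its cell types. In such bulk samples, fewer cells of a type and less RNA per cell cannot be told apart.

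A stem carries water and minerals from the root in its xylem and sugars from the leaf in its phloem, and the thickened, often lignified walls of xylem and fibres hold the shoot upright. Both root and leaf also contain vascular tissue, and the outer stem of many herbs is green, so few cell types belong to the stem alone. Quinoa carries subgenomes from 2 ancestors, so many genes have a closely similar copy, and reads shared by such copies make their individual values uncertain. Of the 102 genes, 84 have an AUR62 identifier and 18 an identifier of another series (non-AUR62 genes). None of the 54238 identifiers was found among the 58882 genes of the RefSeq table of quinoa (assembly ASM168347v1), with 0 matches. The genes are therefore described by their values, no function is stated for any of them, organ markers could not be checked, and no sequence is printed.

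The total count was 16112021 to 18253046 in the root libraries, 18719390 to 24846346 in stem and 17554727 to 22035718 in leaf. The stem libraries were unequal among themselves. Over the 36685 genes that passed a filter on low counts, log2(FPKM + 1) correlated at 0.927 between stem replicates 2 and 3, and at 0.857 and 0.813 between stem replicate 1 and each of them. These are correlations across genes, which share libraries and are not independent replicates. All 102 genes passed the filter, which high counts in one organ are enough to pass. The lowest count of any of them in a stem library was 27, with an exact Poisson 95% interval of 17.8 to 39.3 that covers counting error only, and 94 of the 102 had at least 50 counts in every stem library.

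Stem had the fewest such genes of the 3 organs. The same rule with root in place of stem was met by 1899 genes (3.50% of the table) and with leaf in place of stem by 1693 (3.12%). A stem peak in the mean was more common than a peak that met the rule. In 2623 genes the stem mean was at least 2 FPKM and at least 1.5 times the higher of the root and leaf means. Of these, 102 met the rule, which sets the lowest stem value against the highest single root or leaf value. Over the whole table, and not only among the 2623, another 172 genes failed through the value of stem replicate 1 alone. A further 97 failed through stem replicate 2 alone and 246 through stem replicate 3 alone. Accordingly 274 genes passed when stem replicate 1 was left out, 199 when replicate 2 was and 348 when replicate 3 was, and each list holds all 102 genes by construction. On the scale of total counts, in place of the authors' library sizes, 117 genes passed, of which 81 were among the 102.

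The genes peaking in stem were mostly of moderate level. Their stem means ran from 2.64 to 569 FPKM, with a median of 12.9 and quartiles of 6.92 and 27.8 FPKM. The median stem mean of all genes passing the filter was 5.86 FPKM, without the floor that the rule sets. A stem mean of at least 10 FPKM was reached by 63 of the 102 genes and one of at least 100 FPKM by 7, while 16 lay under 5 FPKM. The 8 most abundant held 50% of the summed stem means. All 102 together took 0.403% ± 0.095 of the counts in stem, 0.104% ± 0.007 in root and 0.045% ± 0.005 in leaf (SD, n = 3).

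**Figure D1:**
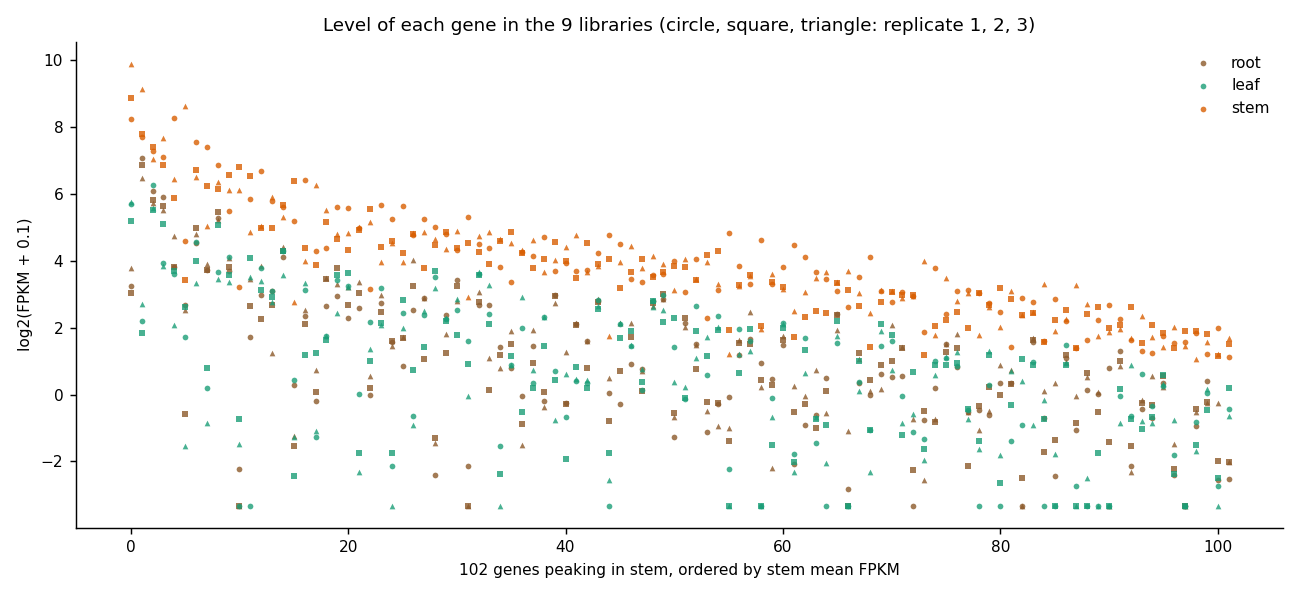
Each of the 102 genes peaking in stem is a column, ordered by stem mean, with its 9 library values on a log2(FPKM + 0.1) axis (orange stem, brown root, green leaf; marker shape is the replicate). In every column the stem points lie above all root and leaf points, as the rule requires, while their distance from those points and from each other varies widely between genes.

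The height of the stem peak varied widely among the genes. The ratio of the stem mean to the higher of the root and leaf means had a median of 4.69, with quartiles of 3.00 and 8.56. It was at least 2 in 99 genes, at least 5 in 45 and at least 10 in 20, counting the gene with 0 in root and leaf. Computed without stem replicate 1, the median ratio was 3.97. Root was the organ of the next highest mean in 64 genes and leaf in 37. The ratio of means ran from 1.77 to 249 among the genes with a value above 0 in root or leaf.

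A group of 13 genes was under 1 FPKM in all 6 root and leaf libraries, and these were mostly low in stem as well, with stem means of 2.73 to 63.3 FPKM and a median of 5.17. At the other end, 41 genes were at 1 FPKM or more in every root and leaf library. Their median stem mean was 22.6 FPKM and their median ratio of stem to the next organ was 3.20. The rule asks a higher stem level of genes with higher root or leaf values, so this contrast is in part built into the choice. A value above 0 in all 6 root and leaf libraries, for which 1 count per library is enough, was present in 80 of the 102 genes.

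AUR62043327 was the one gene of the 102 with 0 counts in every root and leaf library. Its stem values were 2.87, 3.60 and 2.63 FPKM in replicates 1, 2 and 3, from 35, 50 and 50 counts. Against the 0.318 FPKM that 3 counts would give in leaf replicate 1, the library in which 3 counts weigh most, its stem mean of 3.04 ± 0.51 FPKM (SD, n = 3) was at least 9.56-fold higher.

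The highest ratios of stem to the other organs, among genes with a stem mean of at least 10 FPKM, belonged to AUR62031329 and AUR62028219. AUR62031329 was at 9.08, 111 and 69.6 FPKM in stem replicates 1, 2 and 3. It had 1 count over the 3 root libraries and 6 counts over the 3 leaf libraries. Its stem mean was 249 times the leaf mean, and the stem libraries themselves differed 12.2-fold, with replicate 1 the lowest. AUR62028219 was at 36.3, 83.8 and 6.68 FPKM in stem. Its root values were 1.12, 0.245 and 0.321 FPKM and its leaf values 1.26, 0.087 and 0.317 FPKM. Stem replicate 3 was here the lowest, and it was still 5.31 times the highest root or leaf value. Both genes combined a stem level far above the other organs with stem libraries more than 12-fold apart.

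AUR62010975 was the most abundant of the 102 genes and alone made up 17.0% of their summed stem means. It was at 304, 460 and 943 FPKM in stem, at 9.35, 8.09 and 13.7 FPKM in root and at 51.1, 36.2 and 53.3 FPKM in leaf. The 3 organs did not overlap, with root lowest. The gene of the next identifier number, AUR62010976, was also among the 102, and was looked at after its values were seen. Its stem values were 19.3, 14.5 and 77.1 FPKM, again highest in replicate 3, and its root and leaf means were 1.10 ± 0.40 and 0.99 ± 1.11 FPKM (SD, n = 3). Its stem mean was 33.8 times the root mean. This was the only pair of consecutive numbers among the 84 AUR62 genes, and AUR62001849 and AUR62001857 were the only other pair up to 10 numbers apart, also looked at after the values were seen. The files give no positions, so whether such genes are neighbours in the genome, or share reads as similar copies, was not tested.

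AUR62014449 had the next highest stem mean, at 330 ± 202 FPKM (SD, n = 3), and a different profile. It was at 206, 221 and 562 FPKM in stem, at 134, 117 and 88.4 FPKM in root and at 4.50, 3.45 and 6.36 FPKM in leaf. It had far less RNA in leaf than in root and stem. Its leaf mean of 4.77 FPKM was near the median leaf mean of all genes passing the filter, 5.56 FPKM. Its lowest stem value was 1.53 times its highest root value, close to the limit of the rule.

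**Figure D2:**
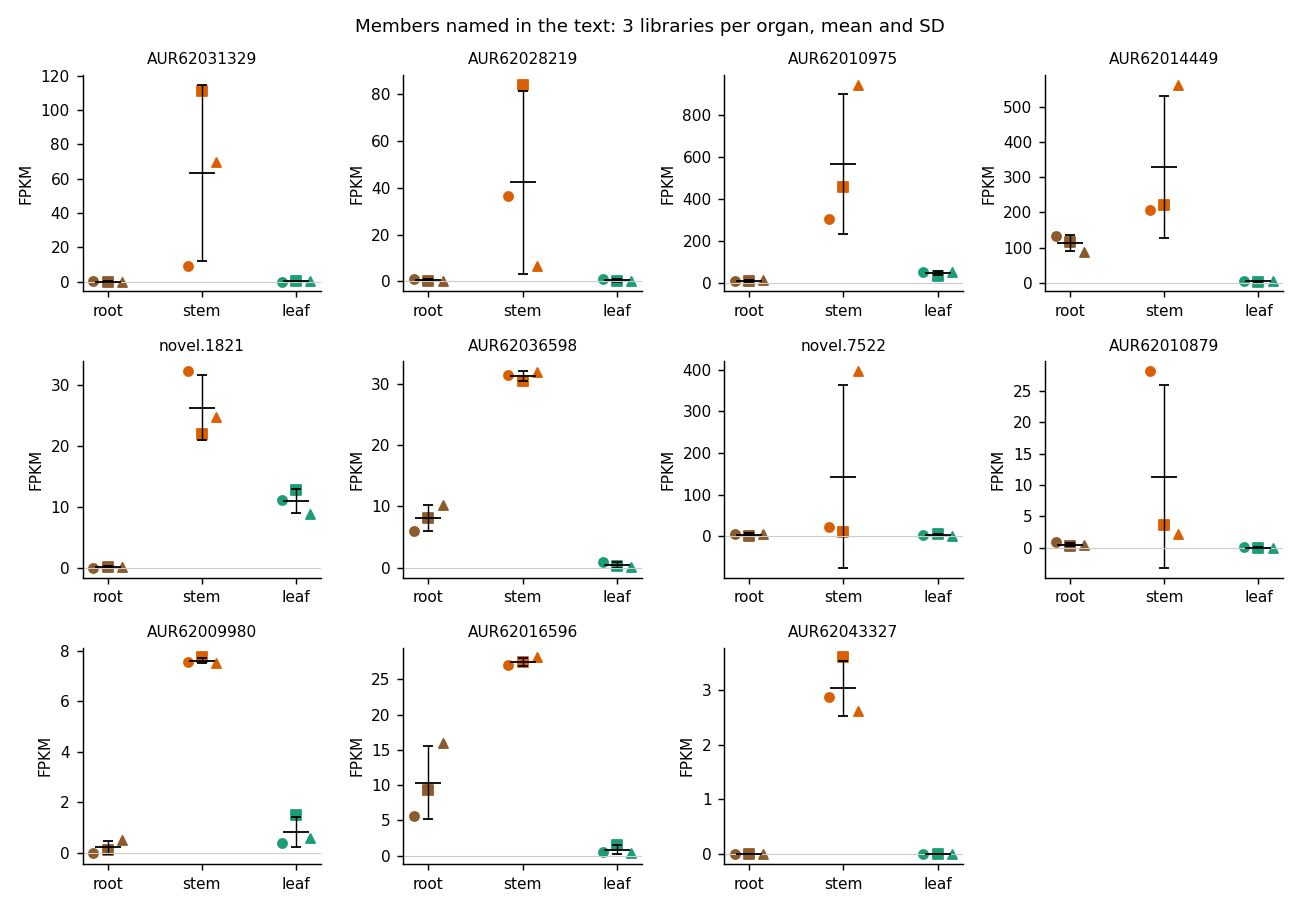
FPKM of 11 of the genes described individually, with 3 libraries per organ (circle, square and triangle for replicates 1, 2 and 3; bars are mean and SD; each panel has its own linear axis). Stem is highest in all panels, with libraries close together in AUR62009980, AUR62016596 and AUR62036598 and far apart in AUR62031329 and AUR62010879; the 2 panels without an AUR62 identifier are the non-AUR62 genes of 1174 and 962 bp.

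The direction of leaf against root was not set by the rule, which uses whichever of the organs is higher. The rule did hold both organs below the lowest stem value, which was not asked of the other tested genes. Stem counts alone could also carry a gene through the filter, and 13 of the 102 were under 1 FPKM in all 6 root and leaf libraries. The shares below are therefore not like for like with the background. The comparison asked whether the genes peaking in stem were otherwise genes of the shoot or of the root. Of the 102 genes, 15 (14.7%) were higher in leaf than in root, where 19.0% of all 36685 tested genes were, and 21 (20.6%) were lower in leaf, where 18.7% of all genes were (edgeR quasi-likelihood test, adjusted p below 0.05 over all genes). The remaining 66 were not called. The spread in this test was estimated over the libraries of all organs, stem included. The median log2 difference of leaf from root was -0.31 over the 102 genes, also with genes at 0 counts in an organ set to their bound, and -0.07 over all genes tested. All 3 leaf libraries lay above all 3 root libraries in 18 of the 102 genes (17.6%, against 28.1% of all tested genes). All root libraries lay above all leaf libraries in 29 (28.4%, against 33.5% of all tested genes). The background count of genes lower in leaf, 6845, was 4494 (11.8%) without leaf replicate 1, 4538 (12.04%) without root replicate 1 and 4310 (11.4%) without root replicate 2. In the same fits 15 (14.7%), 15 (14.7%) and 18 (17.6%) of the 102 genes were lower in leaf. The called shares of the 102 genes were thus within a few percentage points of the background in the fit of all libraries. The gap depended on the fit. With root and leaf libraries alone, 15.7% of the 102 were higher in leaf, against 25.5% of the genes tested there. In that fit 19.6% of the 102 were lower, against 24.5%, and any that failed its filter counted as not called. With DESeq2 the shares were 14.7% against 23.0% higher and 28.4% against 22.1% lower. Both shares without overlap lay below the background, by more for leaf above root (17.6% against 28.1%) than for root above leaf (28.4% against 33.5%). None of these shares was tested against the background.

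Among the 15 genes higher in leaf than in root, the log2 difference ran from 0.78 to 5.61. The largest, among genes with at least 5 FPKM in leaf, was in a non-AUR62 gene of 1174 bp. It was at 0.088, 0.307 and 0.264 FPKM in root, at 11.3, 12.9 and 9.0 FPKM in leaf and at 32.3, 22.0 and 24.8 FPKM in stem. Root was near 0 in each library and no 2 organs overlapped, with a leaf to root difference of 5.61 on the log2 scale (SE 0.39; edgeR adjusted p = 4.85e-05). AUR62010975, described above, was higher in leaf than in root by 2.18 on the log2 scale (SE 0.45; edgeR adjusted p = 0.00569).

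Of the 21 genes lower in leaf than in root, 20 had counts in leaf, and their log2 differences ran from -1.11 to -5.19. AUR62012074, named after its values were seen, was at 0 counts in all leaf libraries and had a root level at least 8.17-fold above 3 counts per leaf library. In AUR62014449 the log2 difference was -4.55 (SE 0.51; edgeR adjusted p = 0.00029). AUR62036598 was at 5.93, 8.10 and 10.1 FPKM in root, at 0.905, 0.196 and 0.102 FPKM in leaf and at 31.4, 30.4 and 32.0 FPKM in stem. Its stem libraries were nearly equal, and its leaf libraries all lay below its root libraries, with a log2 difference of -4.38 (SE 0.63; edgeR adjusted p = 0.000988).

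**Figure D3:**
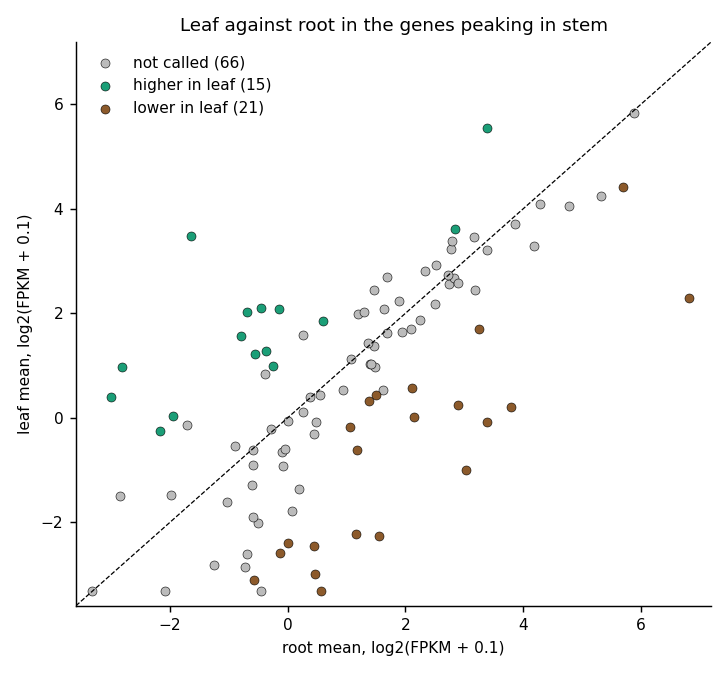
Mean leaf level against mean root level of the 102 genes peaking in stem, both as log2(FPKM + 0.1), with the dashed line at equal levels. The 15 genes higher in leaf (green) and the 21 lower in leaf (brown) lie on either side of a larger group of 66 genes that were not called (grey).

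The 3 stem libraries often disagreed on how high a gene stood. The highest stem value was 2-fold or more above the lowest in 48 of the 102 genes (47.1%). It was 5-fold or more above in 15 (14.7%) and 10-fold or more in 4 (3.92%). Over the 22566 tested genes with at least 2 FPKM in every stem library, 36.0% differed 2-fold or more. In the same 22566 genes, 5.53% differed 5-fold or more and 1.64% 10-fold or more. The shares of the 102 genes and of the 22566 genes were not tested against each other. Stem replicate 1 was the highest in 40 genes (39.2%), replicate 2 in 26 (25.5%) and replicate 3 in 36 (35.3%). Over the 22566 genes these shares were 46.6%, 19.3% and 34.2%, also not tested against each other. Of the 15 genes with a 5-fold spread, 9 were highest in replicate 1, 3 in replicate 2 and 3 in replicate 3. The matching shares among other genes with such a spread were not computed.

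Stem replicate 1, which stood apart over all genes, was the highest or the lowest stem library in 71 of the 102 genes (69.6%), and in 86.8% of the genes with at least 2 FPKM in every stem library. Replicates 2 and 3 were within 1.5-fold of each other in 62 of the 102 genes (60.8%), and in 81.5% of those genes. Replicates 1 and 2 were within 1.5-fold in 45.1% of the 102 genes and in 51.6% of those genes, and replicates 1 and 3 in 49.0% and 46.2%. Whether the genes peaking in stem differ in this from other genes was not tested.

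The least equal of the 102 genes was a non-AUR62 gene of 962 bp. It was at 23.7, 10.6 and 396 FPKM in stem, a 37.5-fold spread, at 6.24, 0.562 and 5.65 FPKM in root and at 3.22, 6.04 and 0.243 FPKM in leaf. Its mean thus rested on stem replicate 3, although its lowest stem value was still 1.70 times the highest root or leaf value. AUR62010879, the next, was at 28.1, 3.68 and 2.24 FPKM in stem, with replicate 1 the highest. Its root values of 0.840, 0.279 and 0.400 FPKM and leaf values of 0.114, 0 and 0 FPKM were all lower.

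The most equal genes were AUR62009980 and AUR62016596. AUR62009980 was at 7.57, 7.74 and 7.54 FPKM in stem, a spread of 1.03-fold, at 0, 0.111 and 0.507 FPKM in root and at 0.361, 1.51 and 0.572 FPKM in leaf. AUR62016596 was at 27.0, 27.4 and 28.1 FPKM in stem, at 5.69, 9.36 and 16.0 FPKM in root and at 0.540, 1.57 and 0.428 FPKM in leaf. In the latter gene the root libraries and the leaf libraries both differed more than those of stem.

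**Figure D4:**
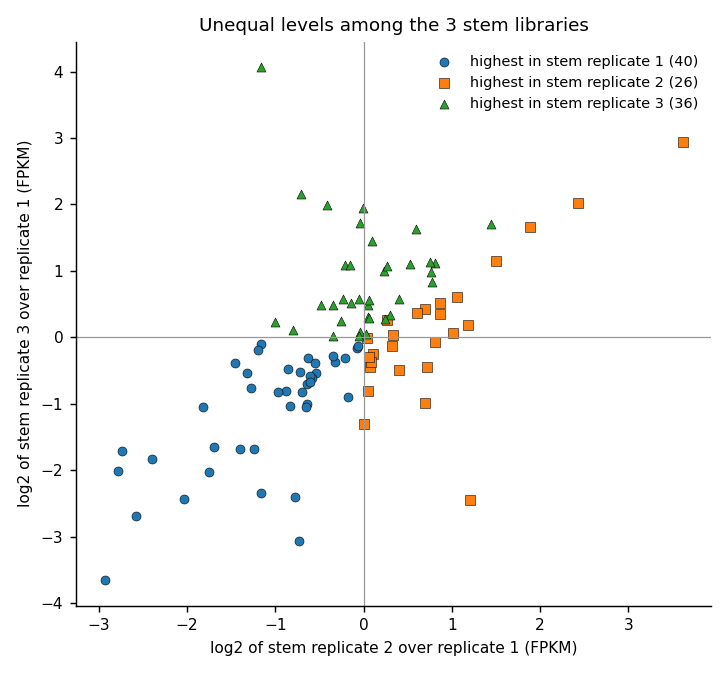
Ratio of stem replicate 2 to replicate 1 against ratio of stem replicate 3 to replicate 1, both as log2 of FPKM ratios, for each of the 102 genes. Genes highest in replicate 1 (40) fall to the lower left, and those highest in replicate 2 (26) or 3 (36) fall to the right and above; genes at the centre have nearly equal stem libraries.

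Whether a stem peak seen in some pools was present in another could be examined by applying the rule to 2 pools and reading the third. Chosen on pools 2 and 3, 362 genes passed, and in pool 1 the stem value of 158 of them (43.6%) was at least 1.5 times the root and leaf values of that pool. Chosen on pools 1 and 3, 292 genes passed, of which 141 (48.3%) had the peak in pool 2. Chosen on pools 1 and 2, 574 genes passed, of which 166 (28.9%) had it in pool 3. Among genes not chosen but with at least 2 FPKM in the stem library of that pool, the shares were 22.9%, 8.05% and 7.22%. The chosen genes did not have to reach 2 FPKM in that library, and among the 265, 198 and 432 that did, 53.6%, 66.7% and 34.0% had the peak in pools 1, 2 and 3. The stem value lay below both root and leaf in 53, 49 and 101 of the chosen genes in pools 1, 2 and 3. These shares are descriptions of 3 pools and were not tested. The 102 genes are in each chosen list, and they count among its genes with the peak because they also met the rule with the values of the pool left out.

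**Figure D5:**
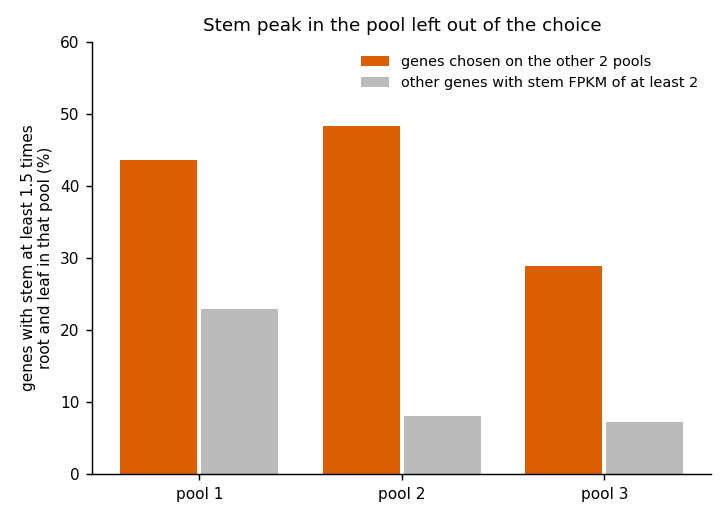
Percentage of genes whose stem FPKM was at least 1.5 times both root and leaf FPKM in a pool, for genes chosen by the rule on the other 2 pools (orange) and for genes not chosen with stem FPKM of at least 2 in that pool (grey). Orange bars stand at 43.6%, 48.3% and 28.9% and grey bars at 22.9%, 8.05% and 7.22% in pools 1, 2 and 3. The orange genes did not have to reach 2 FPKM in that pool. The 102 genes peaking in stem are in every orange list and have the peak there by the rule, so the bars are no test of it.

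Gene length and identifier series were not used by the rule. The genes peaking in stem had a median length of 1165 bp (quartiles 799 and 1644), against 1443 bp (941 and 2159) over the tested genes with at least 2 FPKM in every stem library. Non-AUR62 genes made up 18 of the 102 (17.6%), 16.1% of all tested genes and 9.35% of those with at least 2 FPKM in every stem library. The 18 had a median stem mean of 7.44 FPKM and the 84 AUR62 genes one of 13.5 FPKM. Over all tested genes the medians were 2.27 FPKM for non-AUR62 and 7.01 FPKM for AUR62 genes. These are descriptions of the lists, and no difference between them was tested.

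A few genes lay close to the limit of the rule. A non-AUR62 gene of 1156 bp, just inside, had a lowest stem value 1.51 times its highest root or leaf value, with 22.5, 18.9 and 26.6 FPKM in stem and at most 12.5 FPKM elsewhere. AUR62030925, also at 1.51 times, was at 4.82, 17.8 and 15.3 FPKM in stem and at most 3.19 FPKM elsewhere. Just outside, AUR62011851 was at 1.49 times, with 124, 162 and 88.5 FPKM in stem and 59.4 FPKM in root replicate 3. AUR62018764, at 1.47 times, was at 17.3, 8.79 and 7.61 FPKM in stem and at most 5.16 FPKM elsewhere. In all, 23 genes lay between 1.4 and 1.5 times, and 35 genes met the margin with a lowest stem value between 1 and 2 FPKM.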

How the data were processed

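For 54238 genes the authors deposited raw counts and, in a second table, FPKM values, per the file headers. The submitters' processing notes name TopHat2 2.0.12 and Bowtie2 2.0.6. The sources used here do not give the counter, genome build or strandedness. Dividing each count by its FPKM returned whole gene lengths (within 0.01 bp) for all 46576 genes that had any count, and library sizes 0.773 to 1.21 times the total count, so the deposited FPKM values were not scaled by the total count alone. The gene lengths above come from this division.

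The rule for a stem peak was applied to the deposited FPKM. The genes and the lists in the text were chosen with earlier results of these data known. Leaf was tested against root on the counts with edgeR 4.0.16 (R 4.3.3; filterByExpr, TMM factors, robust quasi-likelihood fit of organ over all 9 libraries), and p-values were adjusted by Benjamini-Hochberg over all genes tested. SE is the log2 difference divided by the square root of F. Per the labels' protocols, each replicate number is a pool of its own, so the spread behind a p-value is that between pools. Organs are paired by pool, but the main fit had no term for pool. Each gene's spread was estimated over all 9 libraries. The stem libraries, whose values also chose the genes, thus entered the leaf and root calls. Without stem replicate 1, 2 or 3, tested genes lower in leaf numbered 9641, 6564 and 7410, against 6845 with every library. Those of them peaking in stem numbered 23, 19 and 20, against 21. Tested genes higher in leaf numbered 9004, 7146 and 7392, against 6987. For the 9 pairs of libraries that share a number, deviations from the organ means in log2(FPKM + 1) correlated at -0.239 to 0.120, with 3 pairs above 0.1. Alternatives were DESeq2 1.42.0, limma 3.58.1, other factors, filters and limits, a replicate block, and leaving out libraries.

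Genes named were, 2 each, those of highest ratio (stem mean of at least 10 FPKM), highest stem mean, largest called difference of leaf from root in each direction (mean of at least 5 FPKM in the higher organ), largest and smallest spread among stem libraries, and nearest to the limit, plus the gene at 0 elsewhere. Few were named because identifiers carry no gene names. Lists by product description and marker lists could not be applied.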

Additional observations from a re-analysis of the deposited data

How the results depend on the processing

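The number of genes peaking in stem depended on the limits of the rule and on single libraries. It was 57 with a margin of 2 times and 236 with 1.2 times, against 102, while a floor of 1 or 5 FPKM gave 137 and 70 and TMM library sizes 101. Leaving out 1 library gave 105 to 348 genes, and leaving out all 3 libraries of a pool gave 362, 292 and 574 for pools 1, 2 and 3. Leaving out a library or pool asks less of a gene, which by itself raises the number. In pools 1, 2 and 3 left out of the choice, stem lay above root and leaf by any margin in 59.7%, 62.7% and 44.9% of the chosen genes. These include the 102 genes, for which the rule set it. Among genes not chosen with at least 2 FPKM in that stem library, the shares were 42.3%, 28.2% and 25.4%. Over all alternatives, the genes of the 102 that were higher in leaf than in root numbered 10 to 18 and those lower 15 to 29, all within 1.5 times of 15 and 21. With the replicate block they numbered 13 and 18, of which 12 and 17 were the same genes. The block moved no count by over 1.5 times. Over all tested genes, those lower in leaf numbered 4310 to 9641 with 1 library left out, and those higher 5204 to 9004. Upper-quartile factors moved the median log2 difference of all genes from -0.07 to -0.24, and called 14 of the 102 genes higher and 26 lower in leaf. For the named genes, 195 of 212 combinations with an alternative gave the same direction and call. The 7 with another direction were in genes not called in any fit. AUR62028219, at -0.06 on the log2 scale, was at 0.012 with DESeq2 and between -1.43 and 0.93 with 1 library left out. The non-AUR62 gene of 962 bp, at -0.38, was at 0.57 with the replicate block and between -1.27 and 0.18 with 1 library left out. Genes of few counts in root and leaf limit the comparison of these organs: 4 of the 102 had fewer than 20 counts over the 6 libraries, and none of the 4 was called.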
